A study of Mus musculus with 24 samples.

Results

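The R-spondins (Rspo1 to Rspo4), their receptors (Lgr4, Lgr5 and Lgr6) and the paired ubiquitin ligases Znrf3 and Rnf43 were followed by gene symbol through RNA-seq of mouse liver cells. These are 9 of the 49568 genes in each of 2 tables, and they were picked for their shared pathway, with earlier results of these data known. The question behind the experiments was how the mesenchyme next to the bile duct acts on the ductal epithelium.

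R-spondins are secreted proteins that strengthen Wnt signalling. Without them, ZNRF3 and RNF43 tag the Frizzled Wnt receptors on the cell surface for removal. An R-spondin that is bound by an LGR receptor and by one of these ligases takes the ligase off the membrane, so more Frizzled remains to receive Wnt. In the liver, Rspo3 is best known from the endothelium of the central vein, where it maintains the Wnt-dependent zone of hepatocytes, and Lgr5 is known as a gene that ductal organoids switch on. Lgr5, Rnf43 and Znrf3 are themselves β-catenin target genes, so their mRNA is often read as feedback.

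The homeostasis experiment held 12 libraries from 3 healthy littermates aged 12 weeks, mice A and E (male) and F (female). They were heterozygous for the B6.129S4-Pdgfratm11(EGFP)Sor/J allele on a C57BL/6 background, in which nuclear green fluorescence from the Pdgfra locus stands in for PDGFRα. From each mouse, ductal cells (DCs, EpCAM+) and 3 stromal fractions were sorted, all negative for CD11b, CD45 and CD31 by antibody. The fractions were the PDGFRα+SCA1- cells, the PDGFRα+SCA1+ cells and the PDGFRα-SCA1+ cells. The transwell experiment held 12 libraries in 6 groups of 2 from untreated wild-type C57BL/6 mice aged 8 to 12 weeks. DCs were sequenced at day 0, after 15 days as organoids in expansion medium (EM), and after 15 days as organoids that shared medium, through a porous membrane, with SCA1+ mesenchymal cells (co-cultured organoids). SCA1+ mesenchymal cells (SCA1+Msc) were sequenced at day 0 and at day 15, either alone or in co-culture. They had been sorted as SCA1+ without a PDGFRα gate, came from 2 littermates, and were grown for 7 days before DCs of 2 other littermates were added. The 15 days of co-culture came after these 7 days. EM contained RSPO1-conditioned medium throughout, with WNT3a at the start only. The co-culture medium contained WNT3a-conditioned medium and no added RSPO1, and added protein does not appear in mRNA counts. The paper's results also name fetal bovine serum in that medium, while the recipe in its methods does not. EM also held EGF, FGF10, HGF, gastrin and nicotinamide, with Noggin at the start, none of which is listed for the co-culture medium. The organoid groups thus differed in several additives and in the presence of SCA1+Msc cells at once, and the parts of these cannot be told apart.

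In units of 1000000 gene-assigned reads, library depth was 19.6 to 25.7 in the homeostasis table and 19.3 to 28.1 in the transwell table. Defining markers matched the DC label: 6 ductal genes summed to between 56200 and 75900 in DCs of the homeostasis table. These DCs also held hepatocyte mRNA, with 5 markers summing to 5770 to 6900, and the transwell DCs at day 0 held 4160 to 5270. PDGFRα-SCA1+ cells carried all 6 endothelial markers, with sums of 1850 to 2260 against 6.14 to 23.7 in the other fractions, and Pecam1, which encodes the CD31 used for depletion, stood at 726, 732 and 929. They are therefore called by their gate. The PDGFRα-SCA1+ library of mouse E also held ductal mRNA (Spp1 3490 against 19.8 in mouse A and 253 in mouse F). SCA1+Msc cells at day 0 held hepatocyte mRNA (5 markers summing to 17300 and 21700, against 25.4 to 381 after culture) and ductal mRNA (6 markers summing to 1190 and 2540). They also held endothelial mRNA, with 6 markers summing to 209 to 214, against 7.21 to 23 in PDGFRα+SCA1+ cells of the separately normalized homeostasis table. In bulk samples, fewer cells of a type and less RNA per cell cannot be told apart.

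In GRCm38 coordinates (GENCODE), Rspo1 lies on chromosome 4 (124986430 to 125009099, + strand), Rspo3 on chromosome 10 (29452416 to 29535867, - strand) and Lgr4 on chromosome 2 (109917647 to 110014257, + strand). Lgr5 lies on chromosome 10 (115450311 to 115587780, - strand), Lgr6 on chromosome 1 (134983301 to 135105276, - strand), Znrf3 on chromosome 11 (5276324 to 5444847, - strand) and Rnf43 on chromosome 11 (87662722 to 87735539, + strand). Promoter windows, from 250 bases before to 50 bases after a RefSeq start in GRCm38.p6, were at hand for 5 of the 9 genes (Rspo1, Rspo4, Lgr4, Lgr6 and Rnf43). None was at hand for Rspo2, Rspo3, Lgr5 and Znrf3. The windows of the mesenchymal ligand Rspo1 and of 2 genes found in DCs, Lgr4 and Rnf43, are shown, with CpG dinucleotides in capitals. They lie at chr4:124986180-124986479, chr2:109917397-109917696 and, for the downstream Rnf43 start, chr11:87699647-87699946, all on the + strand, and the last 50 bases of each are exonic.
Rspo1: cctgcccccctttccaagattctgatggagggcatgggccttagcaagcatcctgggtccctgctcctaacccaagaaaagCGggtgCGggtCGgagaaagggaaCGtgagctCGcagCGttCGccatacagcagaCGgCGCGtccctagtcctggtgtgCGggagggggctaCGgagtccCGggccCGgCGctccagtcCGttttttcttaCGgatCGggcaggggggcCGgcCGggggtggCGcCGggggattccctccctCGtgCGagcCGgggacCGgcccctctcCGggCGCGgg
Lgr4: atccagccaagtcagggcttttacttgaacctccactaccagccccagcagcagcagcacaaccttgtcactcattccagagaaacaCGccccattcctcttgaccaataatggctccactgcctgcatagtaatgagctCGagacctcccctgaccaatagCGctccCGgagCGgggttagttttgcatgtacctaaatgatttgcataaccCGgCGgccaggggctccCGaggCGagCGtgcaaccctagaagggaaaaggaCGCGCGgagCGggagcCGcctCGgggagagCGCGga
Rnf43: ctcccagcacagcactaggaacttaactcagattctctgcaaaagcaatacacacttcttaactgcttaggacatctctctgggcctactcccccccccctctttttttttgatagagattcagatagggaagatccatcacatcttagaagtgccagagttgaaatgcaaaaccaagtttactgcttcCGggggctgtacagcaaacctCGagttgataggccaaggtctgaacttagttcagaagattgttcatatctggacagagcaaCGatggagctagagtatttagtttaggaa
The Rspo1 window held 29 CpGs, more than 87.1% of 32851 promoters of the same length, where the median was 7. Lgr4 had 18, more than 70.3% of promoters, and the downstream Rnf43 start had 3, more than 23.3%. The TCF/LEF core CTTTGA or CTTTGT, read on both strands as TCAAAG or ACAAAG too, was in none of the 6 windows of the 5 genes and in 31.2% of all promoters. That says only that these letters are not in these windows.

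In the livers at rest, Rspo1 was high in the PDGFRα+ fractions and Rspo3 in every stromal fraction, above all in PDGFRα-SCA1+ cells. Lgr4 was highest in DCs, Znrf3 was present in every library, and Rnf43 was shared by DCs and PDGFRα-SCA1+ cells. Of the 9 genes, 6 passed the filter for testing. Rspo2 had no read in any of the 24 libraries, which allows at most 0.0979 (TPM or deposited value, from 3 reads), and Rspo4 had 2 reads, both in DCs of mouse A. Values from the homeostasis table are those deposited, which the authors call TPM, so they are per length, although their scaling moved single values by a factor of 0.722 to 1.39. Differences are on log2(value + 1) by limma, with p-values adjusted over all genes tested. A floor of 3 reads in a library covers counting error only.

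**Figure D1:**
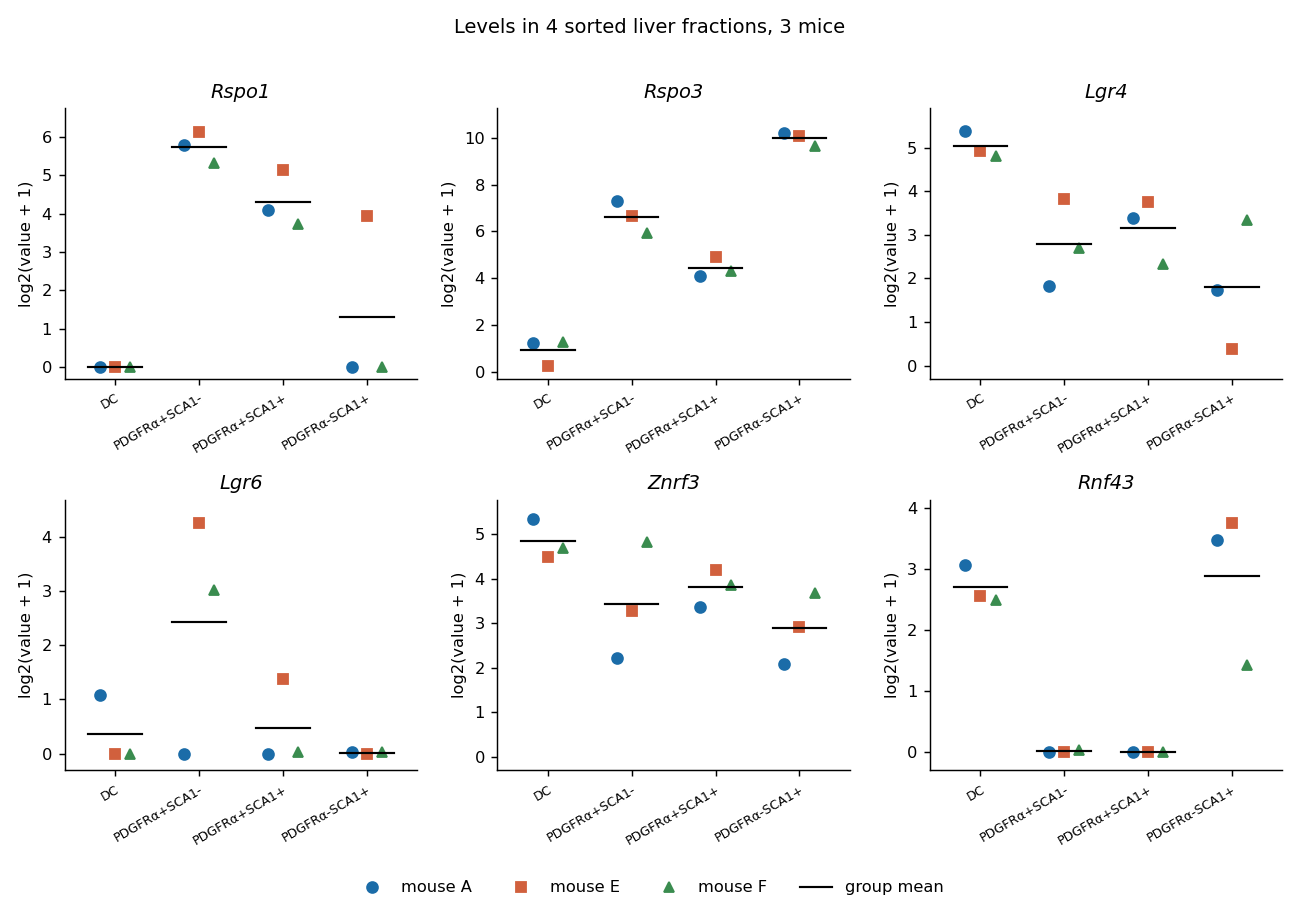
Levels of 6 genes on a log2(value + 1) axis in DCs and 3 stromal fractions, with 1 point per mouse (A, E, F) and a bar for the group mean. Rspo1 is at 0 in the 3 DC libraries and above 12 in the 6 PDGFRα+ libraries, Rspo3 is highest in PDGFRα-SCA1+ cells, and Rnf43 is near 0 in both PDGFRα+ fractions.

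Rspo1 had no read in DCs of the 3 mice. It stood at 54.6, 68.3 and 38.7 in PDGFRα+SCA1- cells in mice A, E and F, and at 15.9, 33.9 and 12.3 in PDGFRα+SCA1+ cells. The samples of each PDGFRα+ fraction lay above every DC library, by at least 137-fold for PDGFRα+SCA1- and at least 43.7-fold for PDGFRα+SCA1+ cells at the floor of 3 reads per library. Both differences passed the test (adjusted p = 5.04e-04 and 0.00413). PDGFRα-SCA1+ cells had no Rspo1 read in mice A and F and 164 reads (14.4) in mouse E, the library with ductal mRNA. The stellate marker Lrat was also at 17.9 there, against 0.0858 and 2.36. All 6 stellate markers together summed to 410 to 692 over the 3 mice. The part of other cells in that Rspo1 value was not tested. Against PDGFRα+SCA1- cells, PDGFRα-SCA1+ cells were lower in Rspo1 by -4.43 (log2, SE 0.91, adjusted p = 0.00412). Against PDGFRα+SCA1+ cells the difference was -3.00 (adjusted p = 0.0374). That call was lost when PDGFRα+SCA1+ cells of mouse A, E or F or PDGFRα-SCA1+ cells of mouse A or F were left out (adjusted p of 0.0611 to 0.137) or no filter was applied, and the difference was -4.31 without PDGFRα-SCA1+ cells of mouse E.

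Rspo3 had the widest range of the family. It stood at 1201, 1099 and 814 (mice A, E, F) in PDGFRα-SCA1+ cells, and only 0.728% of the 17028 genes tested had a higher mean there. PDGFRα+SCA1- cells held 159, 100.1 and 59.9, PDGFRα+SCA1+ cells 16.2, 29.4 and 18.8, and DCs 1.34, 0.179 and 1.44. No 2 of the 4 fractions overlapped. PDGFRα-SCA1+ cells were above DCs by 9.09 (SE 0.42, adjusted p = 6.13e-08) and above PDGFRα+SCA1- cells by 3.37 (SE 0.42, adjusted p = 1.18e-04). Both PDGFRα+ fractions were above DCs, by 5.72 for SCA1- (adjusted p = 1.23e-06) and 3.53 for SCA1+ cells (adjusted p = 5.53e-05). Between the PDGFRα+ fractions the difference was -2.19 (adjusted p = 0.0426, and 0.0825 with mouse as a block). The call was also lost with a pseudocount of 0.1, no filter or quantile normalization, and without PDGFRα+SCA1+ cells of mouse A (0.21), E (0.107) or F (0.184) and without PDGFRα+SCA1- cells of mouse A (0.0786). Marker sums of 3 mesenchymal cell types moved with it. Smooth muscle markers summed to 134 to 175 in SCA1+ against 1240 to 2800 in SCA1- cells, and 4 of 5 were called lower (median -3.50). Stellate markers summed to 2510 to 2770 against 3360 to 9380, with 1 of 6 called, Rgs5 (-2.15, adjusted p = 0.0354). Portal fibroblast markers summed to 446 to 550 against 666 to 810, with 0 of 6 called. The part of these cell types in the Rspo3 difference was not tested.

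The mix of the ligands differed with the gate. Rspo1 made up 25.6%, 40.6% and 39.3% of the summed R-spondin level in PDGFRα+SCA1- cells (mice A, E, F) and 49.7%, 53.6% and 39.5% in PDGFRα+SCA1+ cells. In PDGFRα-SCA1+ cells it made up 0%, 1.29% and 0%. The sum itself was 98.5 to 213 in PDGFRα+SCA1- cells, 31.1 to 63.3 in PDGFRα+SCA1+ cells and 814 to 1200 in PDGFRα-SCA1+ cells, so the fraction with the most R-spondin mRNA had almost only Rspo3. The shares of the PDGFRα+ fractions lay close together in mouse F and overlapped across mice.

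**Figure D2:**
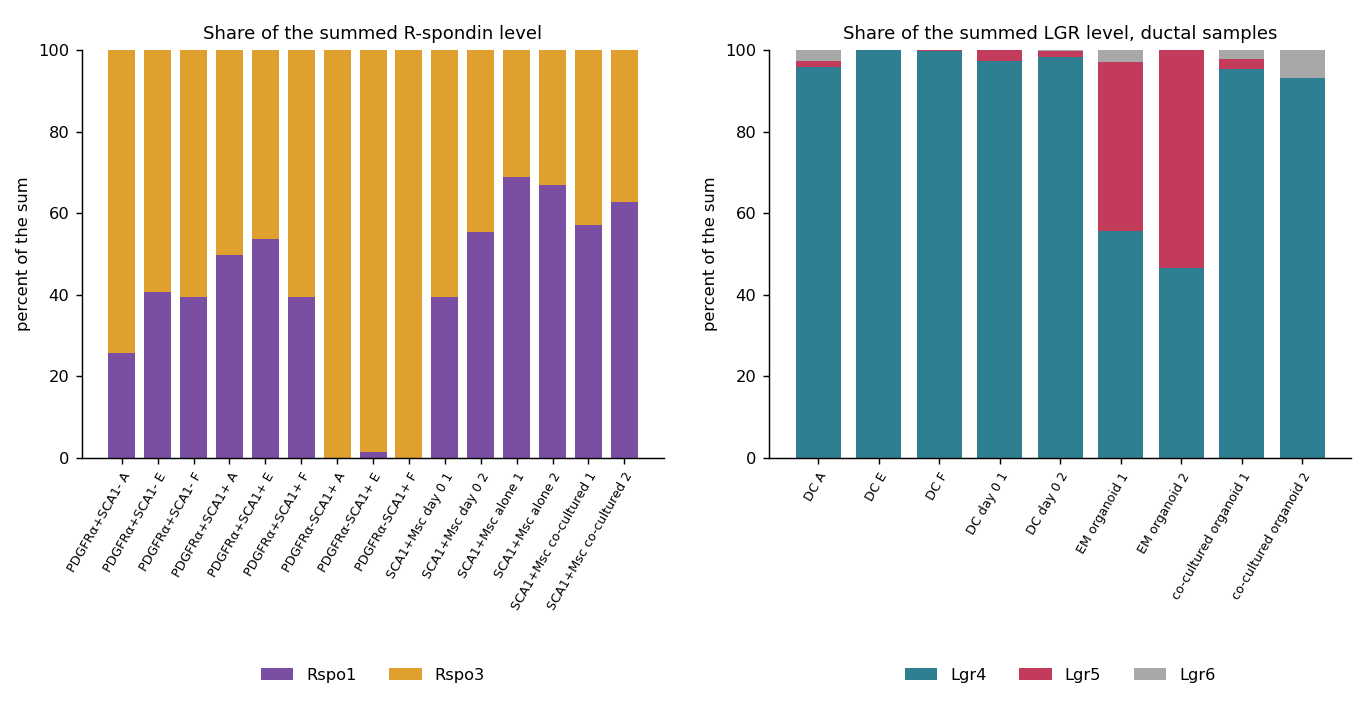
Left, percent of the summed R-spondin level taken by Rspo1 and Rspo3 in each stromal library; right, percent of the summed LGR level taken by Lgr4, Lgr5 and Lgr6 in each ductal library. Rspo3 fills the PDGFRα-SCA1+ bars, Rspo1 takes 66.9% and 68.8% in SCA1+Msc cells cultured alone, and Lgr5 takes 41.5% and 53.4% in EM organoids against at most 2.61% in the other ductal libraries.

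Lgr4, the widely expressed receptor of the family, was the LGR gene of DCs, where it made up 95.8% to 99.9% of the summed LGR level. DCs held 40.4, 29.2 and 27.0 in mice A, E and F. PDGFRα+SCA1+ cells held 9.48, 12.5 and 4.04, PDGFRα+SCA1- cells 2.56, 13.2 and 5.47, and PDGFRα-SCA1+ cells 2.35, 0.292 and 9.05. Every stromal library was below every DC library. The difference from DCs was -3.22 for PDGFRα-SCA1+ cells (SE 0.76, adjusted p = 0.00823). For PDGFRα+SCA1+ cells it was -1.87 and did not pass (adjusted p = 0.0995). For PDGFRα+SCA1- cells it was -2.25 (adjusted p = 0.0436, and 0.067 with mouse as a block). Leaving out DCs of mouse A, E or F or PDGFRα+SCA1- cells of mouse A or F ended that call (adjusted p of 0.0804 to 0.132), as did a pseudocount of 0.1, no filter and quantile normalization.

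Lgr5 and Lgr6 were low or patchy at rest. Lgr5 had 3 to 42 reads in the DC libraries (0.654, 0.0403 and 0.077), and the highest value was 6.08 in PDGFRα+SCA1- cells of mouse E, where the other mice had 2 and 0 reads. It did not pass the filter for testing. Lgr6 stood at 0, 18.0 and 7.07 in PDGFRα+SCA1- cells and made up 48.2% and 56.4% of the LGR sum in mice E and F. It was at most 1.61 in every other fraction, and the 2 positive libraries were far apart. The difference from DCs was 2.06 (SE 0.87, adjusted p = 0.0983) and became 3.27 (adjusted p = 0.00209) without PDGFRα+SCA1- cells of mouse A. Leaving out the same library also gave calls against PDGFRα-SCA1+ cells (-3.61, adjusted p = 0.00147) and against PDGFRα+SCA1+ cells (-3.16, adjusted p = 0.0486), both lower in Lgr6. In PDGFRα+SCA1- cells, smooth muscle sums of 1240 to 2800, stellate sums of 3360 to 9380 and portal fibroblast sums of 666 to 810 stand beside these values. The part of these cell types was not tested.

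The ligases differed from each other in the stroma. Znrf3 was measured in every library, at 39.6, 21.4 and 25.0 in DCs (mice A, E, F), 9.31, 17.3 and 13.6 in PDGFRα+SCA1+ cells, 3.63, 8.71 and 27.4 in PDGFRα+SCA1- cells and 3.25, 6.55 and 11.9 in PDGFRα-SCA1+ cells. Only PDGFRα+SCA1- cells, through mouse F, overlapped with DCs. The difference from DCs passed for PDGFRα-SCA1+ cells alone (-1.95, adjusted p = 0.0491), and it was lost when any of the 6 libraries other than PDGFRα-SCA1+ cells of mouse F was left out (0.0864 to 0.173), with a pseudocount of 0.1 and with no filter on low values. For PDGFRα+SCA1- cells it was -1.41 (adjusted p = 0.127), and -2.10 (adjusted p = 0.0194) without their mouse F library.

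Rnf43, by contrast, had 1 read over the 6 PDGFRα+ libraries. DCs held 7.41, 4.92 and 4.60, and PDGFRα-SCA1+ cells 10.2, 12.5 and 1.69. PDGFRα+SCA1+ cells were at least 63-fold below DCs at the floor of 3 reads (adjusted p = 0.0053), and PDGFRα+SCA1- cells were also below DCs (adjusted p = 0.00491). PDGFRα-SCA1+ cells overlapped with DCs (difference 0.18, adjusted p = 0.889) and lay above PDGFRα+SCA1+ cells by at least 23.1-fold (adjusted p = 0.00462) and above PDGFRα+SCA1- cells (adjusted p = 0.0043). The PDGFRα-SCA1+ library of mouse A had 417 Rnf43 reads with Epcam at 0.61, and that of mouse E had 595 reads with Epcam at 148. The library of mouse F had 70 Rnf43 reads. Hepatocyte markers summed to 5770 to 6900 in DCs, and for PDGFRα-SCA1+ cells the sums ranged from 2060 to 6310. PDGFRα+ cells had sums of 974 to 2400 when SCA1+ and of 850 to 1540 when SCA1-. The part of ductal and hepatocyte mRNA in the Rnf43 levels was not tested. Rnf43 made up 75.8%, 65.6% and 12.4% of the summed ligase level in PDGFRα-SCA1+ cells against 15.5% to 18.7% in DCs.

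Counted over the 6 genes tested, PDGFRα+SCA1+ cells differed from DCs in 3 (2 higher, 1 lower), where 23.8% of all genes passed. PDGFRα+SCA1- cells differed from DCs in 4 (2 higher, 2 lower) at a background of 28.8%. PDGFRα-SCA1+ cells differed from DCs in 3 (1 higher, 2 lower) at 22.8%. They differed from PDGFRα+SCA1+ cells in 3 (2 higher, 1 lower) at 18.8%, and from PDGFRα+SCA1- cells in 3 (2 higher, 1 lower) at 21.5%. Between the PDGFRα+ fractions only Rspo3 passed, at a background of 0.587%, and it was lower in SCA1+ cells. Comparisons that share a fraction share its libraries.

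Among genes that work with the R-spondin axis, the Wnt ligands Wnt2 and Wnt9b were high where Rspo3 was highest. Wnt2 stood at 1110, 1050 and 400 in PDGFRα-SCA1+ cells (mice A, E, F), against at most 25.3 in any other fraction. Wnt9b stood at 141, 122 and 85.8 against at most 1.9. Both were higher than in DCs (8.94 for Wnt2, adjusted p = 2.57e-05; 6.28 for Wnt9b, adjusted p = 4.69e-06). Of the 19 Wnt ligands, 12 were tested in this comparison, of which 2 were higher and 4 lower, with a median of -1.32 against -0.04 over all genes. DCs instead held Wnt7b (49.5, 50.2 and 39.4), and PDGFRα+ cells held Wnt5a, whose signalling is mostly independent of β-catenin. The endothelial markers moved with Rspo3, Wnt2 and Wnt9b, and the part of endothelial cells in these levels was not tested.

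More β-catenin target and feedback genes were called higher than lower in PDGFRα+ cells over DCs, although the summed level of the 17 genes was not higher (1890 to 2230 in DCs, against 1850 to 2100 in the SCA1+ and 1410 to 1740 in the SCA1- fraction). Of the 17 genes 14 were tested, and PDGFRα+SCA1+ cells were higher in 8 and lower in 1 (median 2.12 against -0.28 over all genes), while PDGFRα+SCA1- cells were higher in 8 and lower in 2 (median 2.04 against -0.47). Axin2, a scaffold protein of β-catenin degradation and a standard target gene, was at most 0.033 in DCs, 10.7 to 27.9 in PDGFRα+SCA1- cells, 9.21 to 17.0 in PDGFRα+SCA1+ cells and 1.17 to 7.32 in PDGFRα-SCA1+ cells. Among the genes higher in PDGFRα+SCA1+ cells were 2 inhibitors: Wif1, which binds Wnt outside the cell (7.74, adjusted p = 1.79e-07), and Nkd1, which acts inside it (6.31, adjusted p = 6.13e-07). The gene lower there was Ccnd1 (-4.86, adjusted p = 0.00212). PDGFRα-SCA1+ cells were higher than DCs in 2 and lower in 4 of the 14, with a median of 0.81 of the opposite sign. DCs, with the highest Lgr4, held almost no Axin2. Of 12 Frizzled and LRP receptors 11 were tested, and DCs held more Fzd6 and Fzd9 than either PDGFRα+ fraction and less Fzd1, Fzd2 and Fzd7, each past the test. The counts were 4 higher and 2 lower in PDGFRα+SCA1+ cells (median 0.09 against -0.28 over all genes). In PDGFRα+SCA1- cells they were 4 higher and 3 lower (median -0.63 against -0.47). Of 14 surface co-factors, 8 were higher and 1 was lower in PDGFRα+SCA1+ cells over DCs (median 1.58 against -0.28). The lower one was Sdc4, a syndecan that binds R-spondin (-1.38, adjusted p = 0.0123). The summed level of the 14 co-factors was 2300 to 2690 in DCs and 1670 to 2190 in PDGFRα+SCA1+ cells. The co-factors were lower in 9 of 14 in PDGFRα-SCA1+ cells over PDGFRα+SCA1+ cells (median -2.77 against 0.25 over all genes). Of 17 cytoplasmic and nuclear components, all tested, 1 passed in PDGFRα+SCA1+ cells over DCs, Ctnnb1, which encodes β-catenin (-2.17, adjusted p = 3.18e-05).

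**Figure D3:**
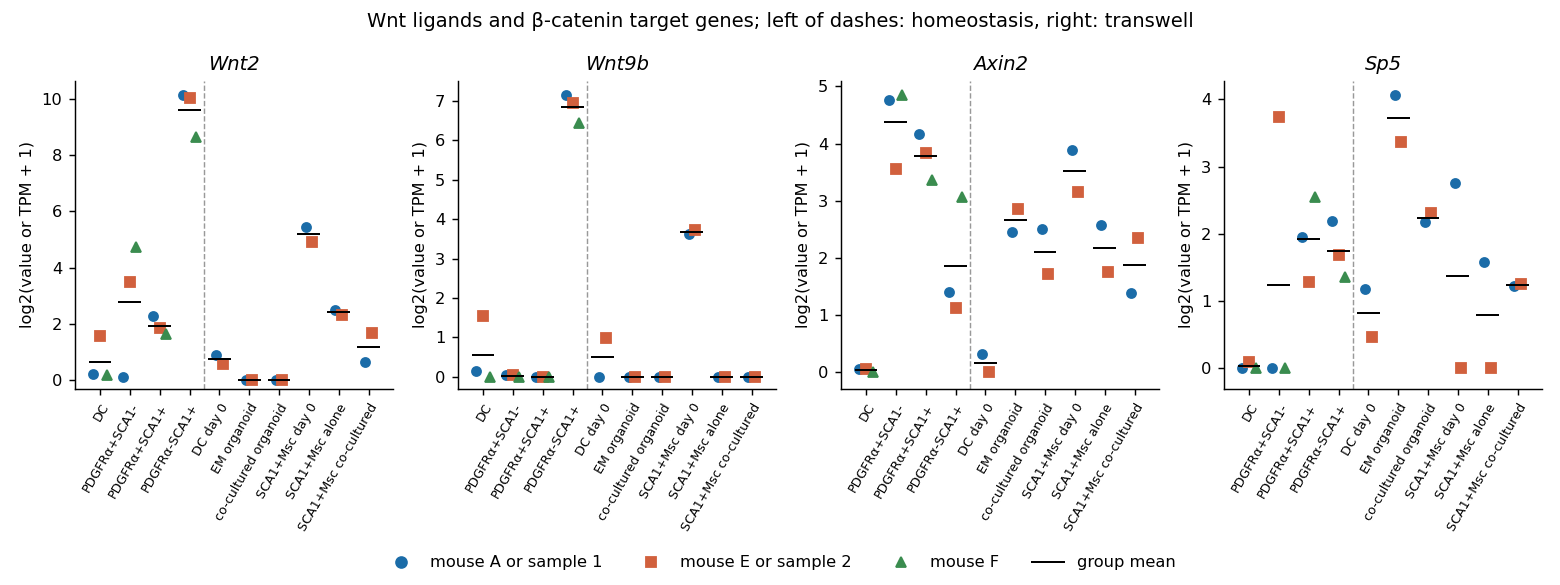
Levels of 2 Wnt ligands and 2 β-catenin target genes on a log2(value + 1) axis, with the homeostasis fractions left of the dashed line (points are mice) and the transwell groups right of it (TPM, points are samples), separately normalized. Wnt2 and Wnt9b are high in PDGFRα-SCA1+ cells and present in SCA1+Msc cells at day 0, and Axin2 and Sp5 are higher in EM organoids than in DCs at day 0.

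In culture, organoids in EM gained receptor and ligase mRNA. Of 7 members tested 4 differed between EM organoids and DCs at day 0 (3 higher, 1 lower), where 44.4% of all genes passed. The transwell values are TPM, made here from the deposited RPKM, and samples are given as 1 and 2. Lgr5 rose from 0.306 and 0.249 to 12.8 and 26.4, which is 16 to 27 reads against 935 to 1732 reads. On means this was 70.7-fold, and 3.93 on the log2 scale (SE 0.53, adjusted p = 2.56e-04). Its share of the LGR sum went from 2.61% and 1.32% to 41.5% and 53.4%, so that Lgr4, at 17.1 and 23.1 (11.4 and 18.6 in DCs), was no longer nearly the sole receptor. Lgr4 itself differed by 0.42 and did not pass (adjusted p = 0.311).

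Both ligases rose in EM as well. Rnf43 went from 3.86 and 1.51 to 29.2 and 25.4, a 10.2-fold ratio of means (3.01, SE 0.59, adjusted p = 0.00241), and with a pseudocount of 0.1 in place of 1 the adjusted p was 0.0641. Znrf3 went from 19.7 and 17.6 to 39.7 and 35.6, a 2.02-fold ratio (0.98, SE 0.22, adjusted p = 0.00568). The summed ligase level rose from 23.6 and 19.1 to 68.9 and 61.0, and the Rnf43 share from 16.4% and 7.91% to 42.4% and 41.6%. Rspo3 was at 2.18 and 1.50 in DCs at day 0 (29 to 58 reads) and had no read in either EM organoid library, at least 9.87-fold lower (adjusted p = 0.00178). Endothelial markers, which summed to 33.1 and 35.3 in the DCs at day 0, summed to 2.93 and 6.80 in EM organoids, with 4 of 6 at 0, and their part in the loss of Rspo3 was not tested. Hepatocyte markers summed to 4160 to 5270 in DCs at day 0, 1340 to 1400 in EM organoids and 153 to 347 in co-cultured organoids. The part of hepatocyte mRNA in the receptor and ligase changes was not tested.

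**Figure D4:**
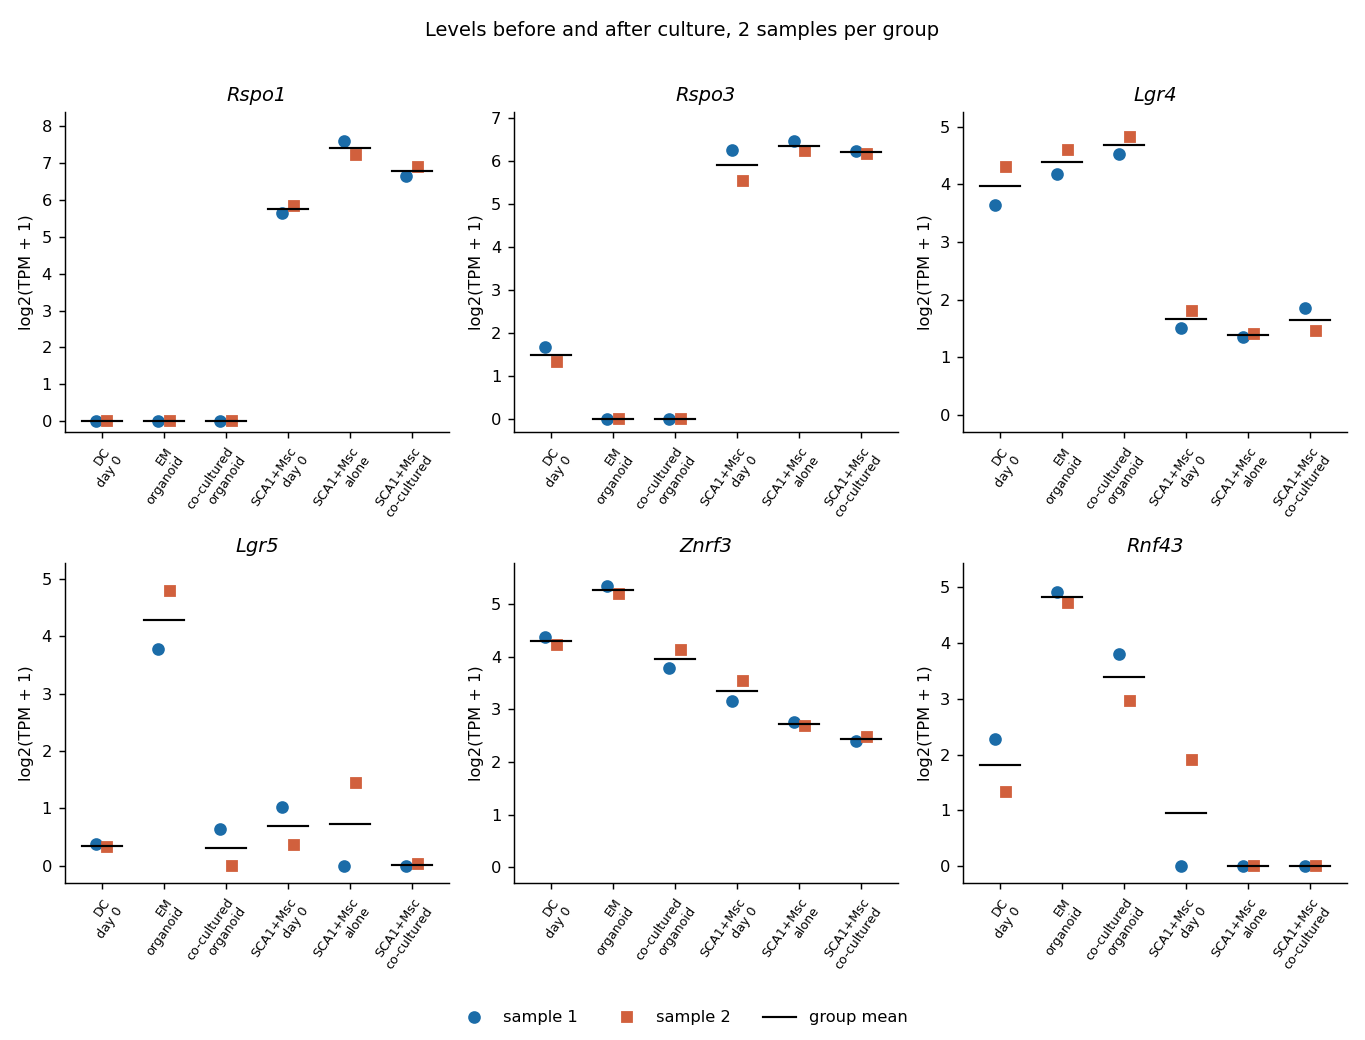
Levels of 6 genes on a log2(TPM + 1) axis in the 6 transwell groups, with 1 point per sample (2 a group) and a bar for the group mean. Lgr5 is high only in the 2 EM organoid libraries, Rspo1 is at 0 in the 6 ductal libraries and between 49.5 and 194 TPM in the 6 SCA1+Msc libraries, and Znrf3 is lowest in co-cultured SCA1+Msc cells.

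Organoids that grew beside SCA1+Msc cells held Lgr4 but not the Lgr5 of EM organoids. Lgr5 had 51 reads (0.555) in co-cultured organoid sample 1 and none in sample 2, so both were far below the EM organoids (-3.96, SE 0.53, adjusted p = 0.00122) and overlapped with DCs at day 0 (-0.03, adjusted p = 1). Lgr4 stood at 22.1 and 27.4, 0.29 above EM organoids (adjusted p = 0.651), and made up 95.4% and 93.2% of the LGR sum. Znrf3 stood at 12.8 and 16.4, below EM organoids by -1.32 (SE 0.22, adjusted p = 0.00439) and not called against DCs at day 0 (-0.34, adjusted p = 0.259). Rnf43 stood at 13.0 and 6.80. The samples lay between DCs and EM organoids without overlap, and neither difference passed (1.58 over DCs at day 0, adjusted p = 0.0557; -1.44 against EM organoids, adjusted p = 0.156).

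Lgr6 was low in all ductal libraries, with 0 and 2 reads in DCs, 44 and 0 in EM organoids and 32 and 103 in co-cultured organoids (0.522 and 1.99). Neither Rspo1 nor Rspo3 had a read in a co-cultured organoid library, and Rspo3 was at least 11.6-fold below DCs at day 0 (adjusted p = 0.00192). That was the only 1 of 7 members called between co-cultured organoids and DCs at day 0, where 42.3% of all genes passed. Between co-cultured and EM organoids 2 of 7 were called, both lower, at a background of 12.9%.

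**Figure D5:**
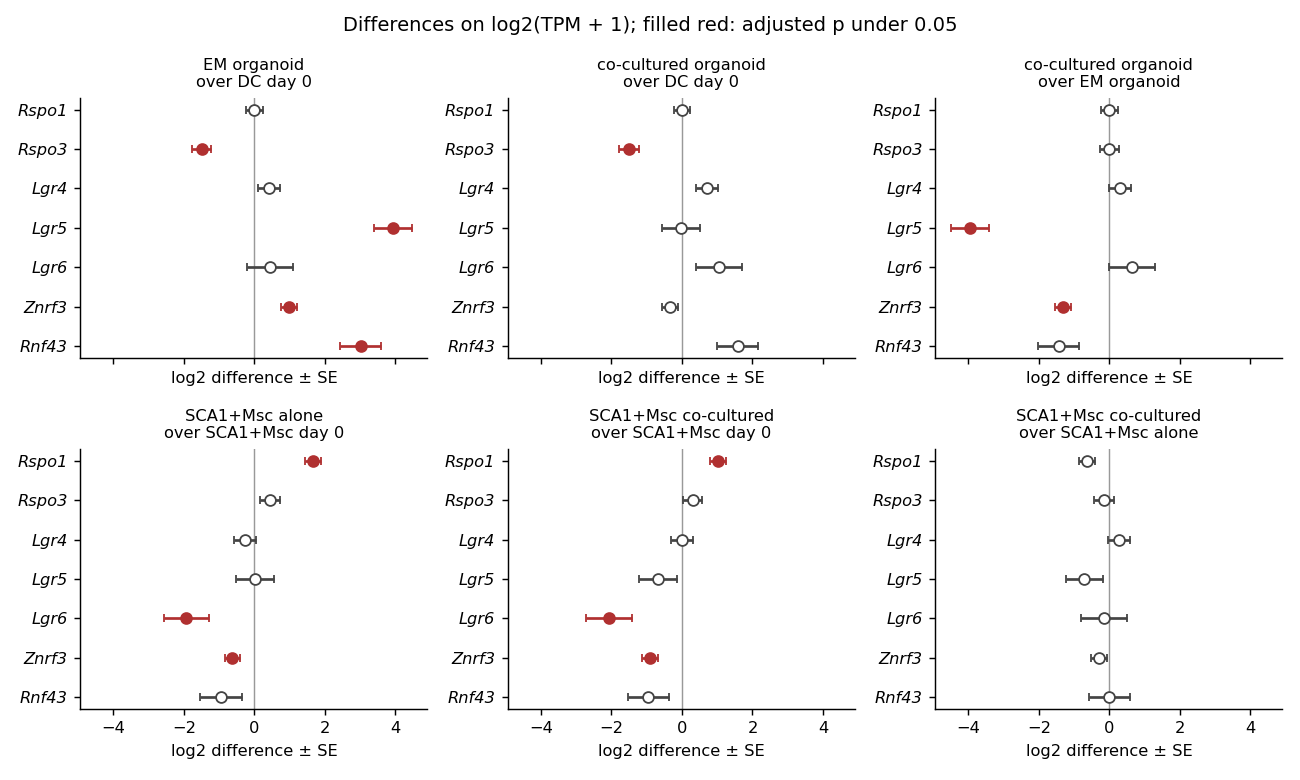
Differences (log2, with SE) of 7 genes between organoid groups (top) and between SCA1+Msc groups (bottom), where filled red points passed at an adjusted p under 0.05. Lgr5 lies at 3.93 in EM organoids over DCs and at -3.96 in co-cultured over EM organoids, and Rspo1 lies at 1.67 and 1.02 in cultured SCA1+Msc cells over day 0.

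Other β-catenin target genes did not all follow Lgr5. Of 15 tested, EM organoids were higher than DCs at day 0 in 5 and lower in 2 (median -0.08 against 0.12 over all genes). The summed level of the 17 listed genes was 1940 to 1970 in DCs at day 0, 756 to 771 in EM organoids and 1100 to 1180 in co-cultured organoids. Sp5, a transcription factor downstream of β-catenin, went from 1.27 and 0.381 to 15.8 and 9.32 (2.89, adjusted p = 0.0162), and Axin2 from 0.232 and 0 to 4.46 and 6.26 (adjusted p = 0.00205). Ascl2, a partner of Lgr5 in intestinal stem cells, was higher too (1.44, adjusted p = 0.0386), at 2.42 and 1.16 from no read. Myc was lower by -3.02 (adjusted p = 2.08e-06). In co-cultured organoids Axin2 stood at 4.67 and 2.26, still above DCs at day 0 (1.95, adjusted p = 0.00835), and Sp5 at 3.51 and 3.98. Over EM organoids, co-cultured organoids were higher in 2 and lower in 3 target genes (median 0.00 against -0.13): Ccnd1, which encodes cyclin D1, was higher (1.36, adjusted p = 1.89e-04), and Bambi (-3.86, adjusted p = 6.40e-06) and Tnfrsf19 (-4.05, adjusted p = 9.53e-04) were lower.

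Wnt7a, a ligand made by the ductal cells themselves, went the other way from Lgr5 in co-culture. It rose from 5.38 and 8.87 in DCs to 58.6 and 40.4 in EM organoids and 157 and 140 in co-cultured organoids, above EM organoids by 1.59 (adjusted p = 0.00753). Wnt7b stood at 113 and 88.1, 301 and 284, and 458 and 363 in the same groups, with calls over DCs at day 0 (adjusted p = 0.0323 and 0.00965) and none between the organoid groups. Among surface co-factors, Gpc3, a heparan sulfate proteoglycan of the glypican family, shared the shape of Lgr5. It stood at 9.50 and 7.78 in DCs, 323 and 293 in EM organoids and 6.07 and 14.3 in co-cultured organoids (-4.89 against EM organoids, adjusted p = 3.18e-05). Of 14 co-factors, 3 were higher and 6 lower in co-cultured over EM organoids (median 0.05 against -0.13 over all genes). Of 11 Wnt receptors tested, 2 were lower, Fzd2 and Fzd3, and of 17 cytoplasmic and nuclear components 1 was lower, Pygo2.

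On the mesenchymal side, SCA1+Msc cells at day 0 carried both ligands, as the PDGFRα+ fractions did. Of 7 members 5 differed from DCs at day 0 (3 higher, 2 lower), where 46.1% of all genes passed. Rspo1 was at 49.5 and 56.6 against no read in DCs, at least 200-fold higher (adjusted p = 1.29e-07). Rspo3 was at 75.7 and 45.5 against 2.18 and 1.50 (4.40, SE 0.28, adjusted p = 1.97e-06). Endothelial markers summed to 209 to 214 in SCA1+Msc cells and 33.1 to 35.3 in DCs at day 0, and their part in the Rspo3 level was not tested. Lgr6, at 5.81 and 9.42 against 0 and 0.0467, was higher by 3.04 (SE 0.65, adjusted p = 0.00375) and was the leading LGR gene of these cells at 66.7% and 77.2% of the sum. Lgr4 (1.85 and 2.5) and Znrf3 (7.88 and 10.6) were lower than in DCs, by -2.31 (adjusted p = 2.27e-04) and -0.95 (adjusted p = 0.00611). Rnf43 had 0 reads in sample 1 and 107 in sample 2, whose ductal markers were also the higher (Epcam 113 against 53.8). It did not pass against DCs (-0.86, adjusted p = 0.273), and it was lower by -1.80 (adjusted p = 0.0159) without sample 2.

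In cultured SCA1+Msc cells at day 15, Rspo1 was higher than at day 0 and Rspo3 did not pass the test. In SCA1+Msc cells cultured alone Rspo1 reached 194 and 149.7, above day 0 by 1.67 (SE 0.23, adjusted p = 2.97e-04). In co-cultured cells it reached 99.3 and 119, above day 0 by 1.02 (SE 0.23, adjusted p = 0.0051). Both samples of each cultured group lay above both day 0 samples. Rspo3 stood at 87.8 and 74.1 alone and at 74.8 and 70.6 in co-culture, 0.45 (adjusted p = 0.22) and 0.30 (adjusted p = 0.416) above day 0. Without day 0 sample 1, the difference alone over day 0 was 0.81 (adjusted p = 0.0396). The Rspo1 share of the R-spondin sum accordingly went from 39.5% and 55.4% at day 0 to 68.8% and 66.9% alone and 57.1% and 62.7% in co-culture. All 4 cultured samples were above both day 0 samples.

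Co-culture against culture alone gave no call among the 7 members, at a background of 0.127% (23 genes). Rspo1 was lower in co-culture by -0.64 (SE 0.23, adjusted p = 0.569 by limma). The samples of Rspo1, Lgr4 and Znrf3 did not overlap between the groups, and none of the 3 was called. How many of all genes did not overlap was not counted, so nothing is read from this. Rspo1 was the 1 member with an unadjusted limma p under 0.05, which 1263 of the 18136 genes tested also had. Rspo3 differed by -0.15, Lgr4 by 0.28, Lgr5 by -0.71, Lgr6 by -0.15 and Znrf3 by -0.29, with adjusted p-values of 0.914 to 1. With 2 samples a group these values do not show that the cells were alike.

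Of the receptors and ligases, Znrf3 and Lgr6 fell in cultured mesenchymal cells. Znrf3 went from 7.88 and 10.6 to 5.75 and 5.40 alone (-0.63, adjusted p = 0.0446) and to 4.24 and 4.53 in co-culture (-0.91, SE 0.22, adjusted p = 0.00839). The first of these calls was lost without day 0 sample 2 (0.178), alone sample 1 (0.101) or alone sample 2 (0.139). Lgr6 went to 2.28 and 0.496 alone (-1.93, adjusted p = 0.0366) and to 0.0692 and 2.71 in co-culture (-2.08, adjusted p = 0.0273). The Lgr6 calls were lost alone without day 0 sample 1 (0.0554), day 0 sample 2 (0.147) or alone sample 2 (0.213), and in co-culture without day 0 sample 2 (0.117) or co-cultured sample 1 (0.203). Both were lost with a pseudocount of 0.1 and with no filter. Rnf43 had no read in the 4 cultured libraries. Its difference from day 0 did not pass (-0.95, adjusted p = 0.225 alone and 0.228 in co-culture), and it did at -1.90 without day 0 sample 1 (0.0132 and 0.0136). Of 7 members 3 were called in each comparison (1 higher, 2 lower), at backgrounds of 44.8% alone and 43.3% in co-culture.

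The cells around these genes changed at the same time. Hepatocyte marker sums were 17300 and 21700 at day 0 and 38 and 54 alone, and smooth muscle sums were 583 and 795 at day 0 and 3170 and 3460 alone. Wnt2 (42.8 and 28.9 at day 0, 4.68 and 4.03 alone, 0.56 and 2.21 in co-culture) and Wnt9b (11.3 and 12.3 at day 0, no value above 0 in culture) fell together with the sinusoidal markers Stab2 (28.0 and 19.6 at day 0, at most 0.017 in culture) and Lyve1. Pecam1 remained at 45.8 to 96.1 in cultured cells against 70.6 and 80.1 at day 0, and Rspo3 did not fall with Wnt2. The part of each cell type in the R-spondin levels was not tested. Of 12 Wnt ligands tested, 2 were higher and 4 lower alone over day 0 (median -0.76 against 0.19 over all genes), among them Wnt4 (2.17, adjusted p = 4.52e-04) and Wnt5a (1.19, adjusted p = 0.00487) higher. Of 15 target and feedback genes 2 were higher and 6 lower (median -0.95). Axin2 stood at 13.7 and 7.88 at day 0 and at 4.97 and 2.34 alone, and Porcn and Wls, which process and carry Wnt proteins out of the cell, rose by 2.46 (adjusted p = 5.99e-04) and 1.70 (adjusted p = 4.62e-06).

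Across the membrane at day 15, Rspo1 and Rspo3 were higher in the mesenchymal compartment and Lgr4, Znrf3 and Rnf43 in the organoids. Of 7 members 5 were called between co-cultured SCA1+Msc cells and co-cultured organoids (2 higher, 3 lower), where 36.7% of all genes passed. Rspo1 and Rspo3 were at least 484-fold and at least 548-fold higher in SCA1+Msc cells (adjusted p = 2.69e-08 and 1.38e-07). Lgr4 was lower there by -3.03 (SE 0.31, adjusted p = 3.91e-05), Znrf3 by -1.52 (SE 0.22, adjusted p = 4.32e-04), and Rnf43 by at least 94.1-fold (adjusted p = 0.00132). Lgr5 and Lgr6 were not called, at -0.30 (adjusted p = 0.734) and -0.10 (adjusted p = 0.965).

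Set side by side, with no test because the tables were normalized separately, Lgr4 was the leading LGR gene of freshly sorted DCs in both experiments, at 27.0 to 40.4 in one and 11.4 and 18.6 TPM in the other. SCA1+Msc cells at day 0 had an Rspo1 share of 39.5% and 55.4%, against 25.6% to 40.6% in PDGFRα+SCA1- cells, 39.5% to 53.6% in PDGFRα+SCA1+ cells and at most 1.29% in PDGFRα-SCA1+ cells, although their gate had no PDGFRα. Lgr6 was present in SCA1+Msc cells at day 0 and, in the homeostasis table, above 2 only in PDGFRα+SCA1- libraries. Znrf3 was in every library of both tables, and Rnf43 was nearly absent wherever PDGFRα+ or cultured mesenchymal cells were sequenced.

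The genes whose pattern was most like each member's were listed by Pearson's r of log2(value + 1) over the 12 samples of an experiment, as a description over libraries that share groups. Rspo1 at rest was most like Tpm2, Ncam1, Lrat, Axl and Mmp3 (r of 0.953 to 0.961 among 10683 genes), of which Lrat stores retinoid in stellate cells. Rspo3 at rest was most like Slc9a3r2, Ehd3, Endou, 9930111J21Rik2 and Abcg1 (0.976 to 0.984). Rnf43, present in both DCs and PDGFRα-SCA1+ cells, was most like Gstp1, Odf3b, Cox6b1, Kcnq1 and Slc52a3 (0.938 to 0.969). In the transwell samples, Rspo1 was most like Cdh11, Adamts3, Kcns3, Tbxa2r and Tbx20 (0.998 each among 10581 genes), and Rspo3 was most like Cygb, Adamts2, Spon1, Lum and Emilin1 (0.997 to 0.998), several of which encode matrix proteins. Lgr5 was most like Dock1, Tmeff2, Rpl30, Adgrl2 and Reg3b at lower r (0.888 to 0.922).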

How the data were processed

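RNA was amplified by Smart-seq2 and sequenced as single reads without strand information. The authors aligned reads with STAR 2.5.0a to GRCm38, filtered them with SAMtools, counted reads per gene with featureCounts 1.6.0 and deposited RPKM for the transwell samples and values they name TPM for the homeostasis samples. The deposited TPM-like values fit RPKM divided by the 12 sample totals in rotation down the rows, since 92.9% of low values are then whole reads against 11.5% with each sample's own total. This moved single values by a ratio of 0.722 to 1.39. They were used as deposited, with the correction as an alternative. RPKM were rescaled here to sum to 1000000 TPM. Depth was recovered from the low values, of which 92.9% (homeostasis) and 93% (transwell) were within 0.02 of a whole read. The authors' mean columns were not used.

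Genes that reached 1 in 3 or more homeostasis samples (17028 genes) or in 2 or more transwell samples (18136 genes) were tested on log2(value + 1) in limma 3.58.1 (R 4.3.3), with 1 mean per group over the 12 samples of an experiment, a trend in eBayes, two-sided tests, Benjamini-Hochberg adjustment over all genes and a threshold of 0.05. The code was tested on simulated data. Libraries were taken as separate samples of a group from the labels. Where no label says that the transwell pairs are separate cultures, p-values measure only the spread between these samples. The 3 letters in the homeostasis labels were read as the same mice in each fraction, so mouse was also fitted as a block. Deviations from the group means correlated at 0.00395 to 0.0973 between same-letter libraries and at -0.0946 to 0.0378 between the others. These ranges overlap, so the correlations alone do not show the pairing. It rests on the labels and on the paper's methods, by which the fractions came from 3 littermates. Alternatives were a pseudocount of 0.1, no filter, quantile normalization, the block, the corrected totals and each library left out. Named genes were the 9 members, up to 3 called genes a direction of each pathway list, marker genes, and the 5 genes most like a member; Sp5, Wnt7b and Axin2 levels stand beside results as list genes chosen after their values were seen. The member genes, lists and tests were chosen with earlier results of these data known. Sequences are from RefSeq.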

Additional observations from a re-analysis of the deposited data

Results flagged for a closer look

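Lgr6 differed from day 0 in opposite directions in the 2 co-cultured compartments. Both co-cultured organoid samples (0.522 and 1.99 TPM) were above both DC day 0 samples (0 and 0.0467), a difference of 1.06 on log2(TPM + 1) that did not pass (limma adjusted p = 0.23). Both co-cultured SCA1+Msc samples (0.0692 and 2.71) were below both SCA1+Msc day 0 samples (5.81 and 9.42), a difference of -2.08 (adjusted p = 0.0273). That call was lost without day 0 sample 2 (0.117) or co-cultured sample 1 (0.203), and SCA1+Msc cells cultured alone were also below day 0, by -1.93 (adjusted p = 0.0366). The difference between the 2 compartments was not tested.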

How the results depend on the processing

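Over 40 called member differences, no direction changed under any alternative. Of 177 values under alternatives other than left-out libraries, 160 stayed called and 17 did not. Of 194 values with 1 library left out, 167 stayed called. The Rspo3 difference between the PDGFRα+ fractions, the only member call there, was lost (0 members called) with a pseudocount of 0.1, no filter, quantile normalization and mouse as a replicate block; genes called there went from 100 to 54 with quantile normalization and 20 with the block, and members from 1 to 0 to 1 and genes to 6 to 392 with 1 library left out. With mouse as a block, the Lgr4 call of PDGFRα+SCA1- cells over DCs was also lost, and no other member call changed. Genes called fell from 4054 to 2668 (PDGFRα+SCA1+ over DCs, lowest of 2668 to 3229 with a library left out) and from 4911 to 3251 (PDGFRα+SCA1- over DCs, 3251 to 5115) without DCs of mouse E. Co-cultured over EM organoids gave 2348 genes, and 1093 to 1310 with any of the 4 libraries left out. SCA1+Msc cells alone over day 0 gave 3 members, and 1 to 4 with a library left out (1 without day 0 sample 2 or alone sample 2). SCA1+Msc cells co-cultured over alone gave 23 genes, 40 with a pseudocount of 0.1, 51 without a filter and 0 to 27 with a library left out. The transwell replicate numbers were read as shared numbers only, since no label ties them to a mouse or culture. Same-numbered samples correlated in their deviations at -0.0188 to 0.0295, which cannot decide this with 2 samples a group. With the replicate number as a block, SCA1+Msc cells co-cultured over alone gave 5 genes. Of the member calls, the Znrf3 fall in SCA1+Msc cells alone was then lost (limma adjusted p = 0.0579). The cause was not tested. With a pseudocount of 0.1 and with no filter, the calls of Znrf3 (PDGFRα-SCA1+ over DCs), Lgr4 (PDGFRα+SCA1- over DCs) and Lgr6 (SCA1+Msc cells alone and co-cultured over day 0) were lost, the Lgr4 call with quantile normalization too. The Rspo1 call of PDGFRα-SCA1+ over PDGFRα+SCA1+ cells was lost without a filter and the Rnf43 call of EM organoids with the pseudocount. Both Lgr5 calls held under every alternative run.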
